A study of Homo sapiens with 4 samples.

Results

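The genes described here code for subunits of the mitochondrial respiratory chain and of the ATP synthase. They were chosen by name: symbols made of NDUFA, NDUFB, NDUFC, NDUFS or NDUFV and a number, and symbols that begin with UQCR, COX4, COX5, COX6, COX7, COX8 or ATP5, with pseudogenes left out. Of 19798 genes with a probe set of their own, 73 met this rule: 33 of complex I, 7 of complex III, 16 of complex IV and 17 of the ATP synthase. Some protein-coding genes with such names, among them ATP5F1E, ATP5PF, COX8A, UQCRFS1 and UQCRH, had no probe set assigned to them alone and are not analysed here. The pseudogenes left out were ATP5F1EP2, COX6CP4 and UQCRFS1P1.

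The RNA of HCT-116 dicer- cells was read on 4 one-colour arrays. HCT-116 is a human line from a colon carcinoma, and dicer- marks a change in Dicer, which processes microRNA precursors; all groups share it. The groups were mock transfection (2 arrays), 10 nM of the miR-124 duplex G/P with an intact guide strand (1 array) and 10 nM of the miR-124 duplex G10.12/P with a segmented guide strand (1 array), all taken at 24 h. In the body miR-124 is made mainly by neurons, and the series asks whether a guide strand in segments still acts. Neither duplex has a replicate, so the test takes the spread of a single duplex array to be that of the mock pair. The labels do not say whether the 2 mock arrays hold separate cultures; p-values therefore reflect the spread of these arrays alone, and that spread may be only technical.

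Complex I takes electrons from NADH, complex III passes them from ubiquinol to cytochrome c, and complex IV hands them to oxygen. All 3 pump protons across the inner mitochondrial membrane, and the ATP synthase uses the returning protons to make ATP. Nearly all subunits are coded in the nucleus and imported into the mitochondrion; the few coded by mitochondrial DNA had no probe set of their own.

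The labelled cell type was checked against marker genes. Of 9 measured epithelial and colon markers, 7 had a mean level over the 4 arrays above the median gene (6.76 on the log2 scale). EPCAM, an epithelial adhesion protein gene, lay between 13.01 and 13.06 on all arrays. The colon markers LGALS4 and VIL1 were low, at 2.77 to 3.68. Of 7 blood and endothelium markers 0 lay above that median. Of 9 muscle markers, 8 germ cell markers and 8 smooth muscle and fibroblast markers, 1, 1 and 2 did. DICER1 had log2 levels from 10.80 to 11.28 on the 4 arrays, and cells with unaltered Dicer are not analysed here.

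Most of the 73 genes were measured at high levels and stayed close to mock. By their mean over the 4 arrays 63 of them lay above the median level of all genes. With the intact duplex 62 of the 73 stood less than 0.5 log2 units from the mock mean, against 67.9% of all genes, and with the segmented duplex 67 did, against 79.9%. By limma's test at an adjusted p of 0.05 over all genes, 6 members rose and 2 fell with the intact duplex, and the remaining 65 did not pass. That is 11.0% of members, beside 24.9% of all genes. In RNA from whole cultures, a change in every cell and a change in some of the cells cannot be told apart. With the segmented duplex 1 rose and 1 fell and 71 did not pass, which is 2.74% of members beside 5.99% of all genes. The mock arrays differed from each other by at least 1.5-fold in 0 members and in 3.23% of all genes.

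**Figure D1:**
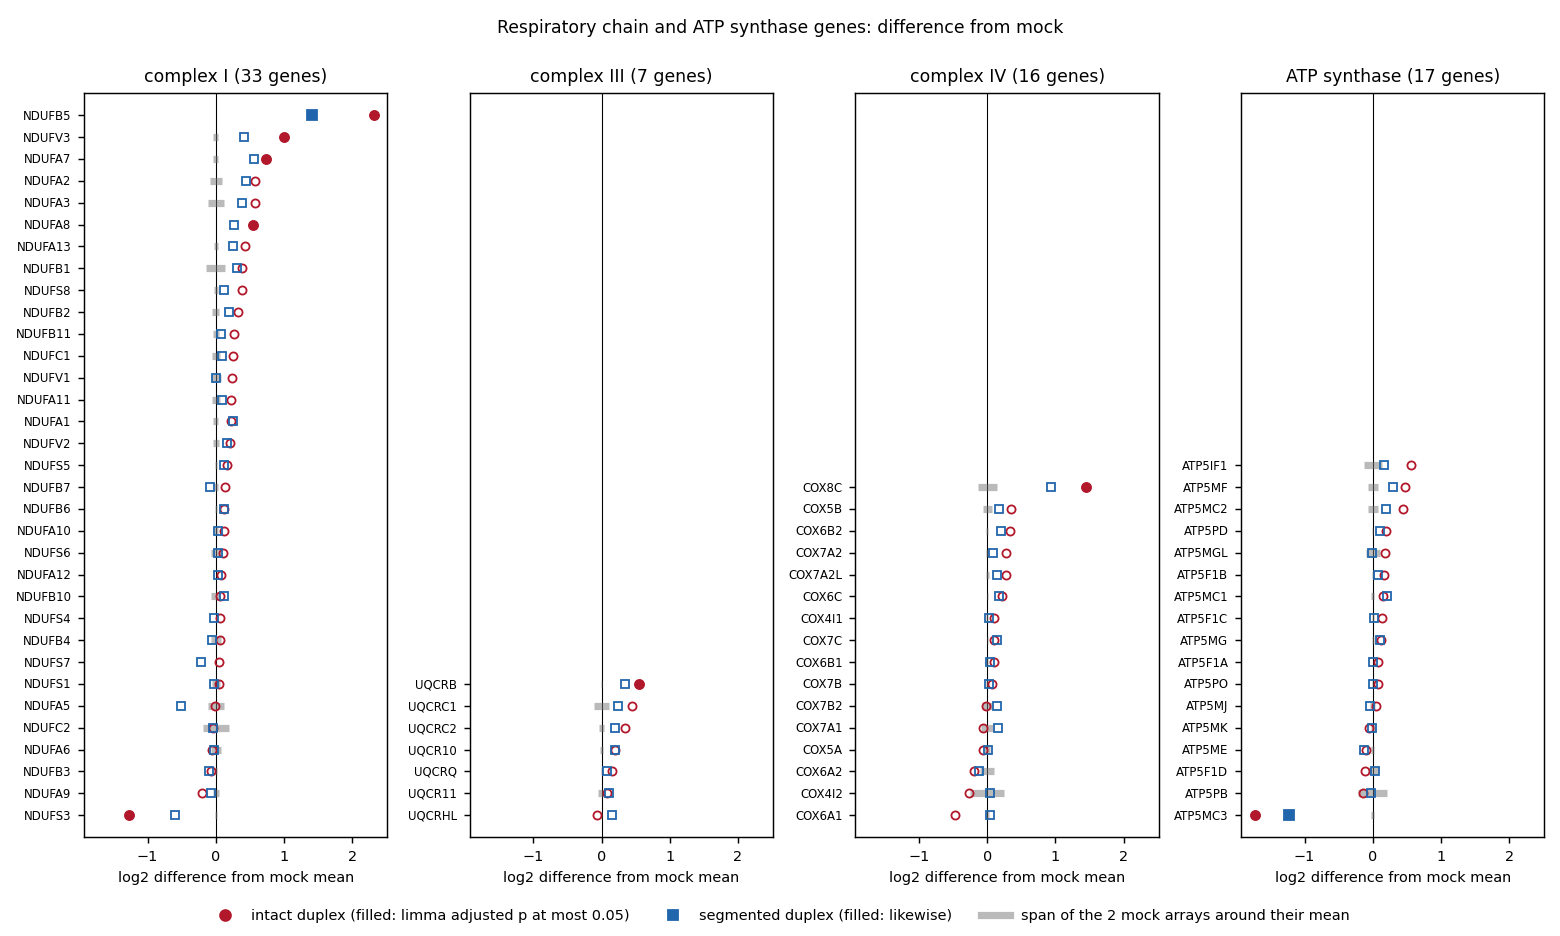
Log2 difference from the mock mean for each of the 73 genes, by complex, with the intact duplex (circles) and the segmented duplex (squares); filled symbols passed limma's test and grey bars span the 2 mock arrays. Most genes sit close to 0, and NDUFB5 (2.31 and 1.40), COX8C, ATP5MC3 (-1.73 and -1.23) and NDUFS3 stand away from it.

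Small positive differences were common. With the intact duplex 55 of 73 members had a positive difference, with a median of 0.13, beside a median of 0.02 over all genes. With the segmented duplex 54 were positive and the median was 0.09, beside 0.01. The intact array lay above both mock arrays for 53 members (72.6%, beside 44% of all genes) and below both for 12 (16.4%, beside 39.8%). The segmented array lay above both for 48 (65.8%, beside 42%) and below both for 11 (15.1%, beside 37.5%). Both comparisons use the same mock arrays. The members are brighter than most genes, and among the 9899 genes above the median level the medians were 0.09 with the intact and 0.07 with the segmented duplex, against 0.14 and 0.09 for the 63 members there. Positive differences with the intact duplex were found in 82.5% of these 63 members and in 56.8% of the 9899 genes. For the segmented duplex these shares were 76.2% and 58.2%. Whether level accounts for the members' small positive differences was not tested. With arrays centred on their medians the members' medians were 0.04 and 0.03, beside -0.07 and -0.05 for all genes.

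**Figure D2:**
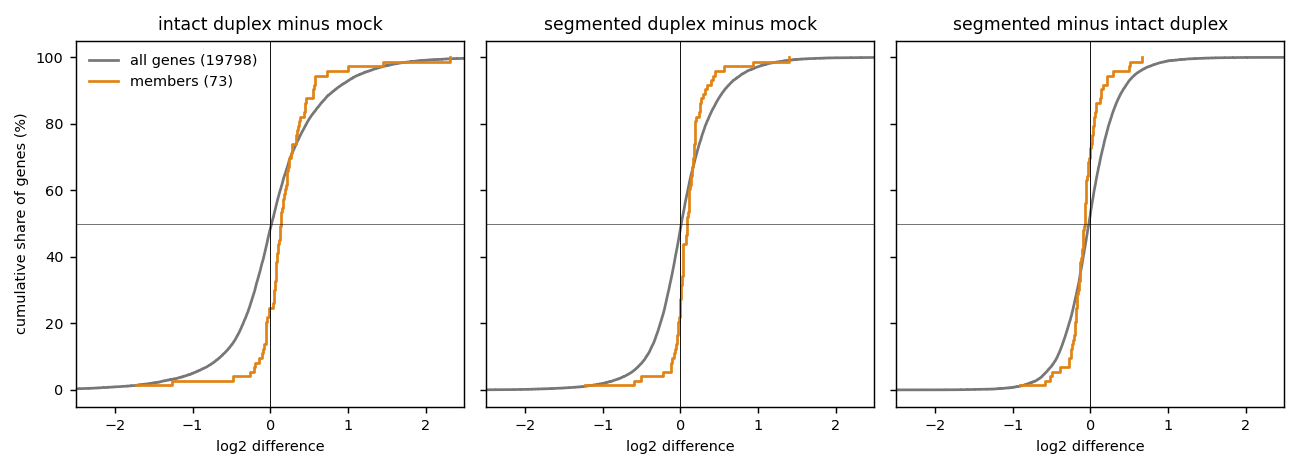
Cumulative share of genes (%) against the log2 difference for the intact duplex minus mock, the segmented duplex minus mock and the segmented minus the intact duplex, for all 19798 genes (grey) and the 73 members (orange). The members' curves are steeper than those of all genes and cross 50% at 0.13, 0.09 and -0.07.

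The number of members past the test differed between settings. Their count with the intact duplex was 31 (28 higher, 3 lower) with a trended and robust prior, 19 of 67 (17 higher, 2 lower) without the dimmest 40% of genes, and 18 (16 higher, 2 lower) with a pseudocount of 16. The same settings called 39.4%, 58.5% and 35.5% of all genes. With the segmented duplex these settings called 17, 8 and 9 members, beside 27.4%, 40.2% and 21.5% of all genes. Some members described below as not passing thus passed in these settings. Where no setting is named, a result is from the fit over all genes without such changes. With arrays centred on their medians 4 rose and 3 fell with the intact duplex in place of 6 and 2 (beside 26.7% of all genes), and 2 passed with the segmented duplex (beside 8.45%). With a further quantile normalization 8 and 2 members passed, beside 26.0% and 6.61% of all genes, and with the mean of a gene's probe sets 6 and 2, beside 25.3% and 6.88%. By size alone, the intact array stood 1.5-fold or more from each mock array for 6 members, beside 23.2% of all genes: 4 higher, beside 13.7%, and 2 lower, beside 9.52%. The segmented array did so for 4 members, beside 12.3%: 2 higher, beside 7.37%, and 2 lower, beside 4.89%.

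In complex I, NDUFB5 rose and NDUFS3 fell, while most of the 33 genes differed little from mock. With the intact duplex 4 rose and 1 fell, beside 14.5% higher and 10.4% lower over all genes, and 28 did not pass. Those 28 ran from -0.21 to 0.57, 23 of them above 0. With the segmented duplex 1 rose and 0 fell, beside 3.31% and 2.68% of all genes. The 32 that did not pass ran from -0.60 to 0.56. The median difference of the 12 NDUFA genes was 0.22 with the intact and 0.17 with the segmented duplex, and that of the 9 NDUFB genes 0.13 and 0.11.

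NDUFB5, an accessory subunit of the membrane arm, had log2 levels of 7.81 and 7.80 in mock cells, 10.119 after the intact and 9.21 after the segmented duplex. Both duplex arrays lay above both mock arrays, and the intact array was the higher. The rise of 2.31 with the intact duplex is 4.96-fold (limma SE 0.12, adjusted p = 0.00822), and lies at percentile 99.6 of all genes. The rise of 1.40 with the segmented duplex is 2.64-fold (limma SE 0.12, adjusted p = 0.0354). NDUFB5 has 1 probe set, so no second measurement of it was made on these arrays.

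NDUFS3 is a core subunit of the arm that passes electrons to ubiquinone. Its log2 levels were 10.86 and 10.89 in mock cells, 9.60 after the intact and 10.27 after the segmented duplex, so both duplex arrays were lower than both mock arrays. It fell by 1.27 with the intact duplex, a 2.41-fold difference (limma SE 0.12, adjusted p = 0.0105). With the segmented duplex the difference of -0.60 did not pass (limma adjusted p = 0.0742), and it passed with the dimmest genes left out, with the trended and robust prior and with the pseudocount. It is the 1 member of the 6 measured core subunits that passed. The others, NDUFS1, NDUFS7, NDUFS8, NDUFV1 and NDUFV2, had differences of 0.04, 0.05, 0.38, 0.24 and 0.21 with the intact duplex.

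The other complex I genes that rose with the intact duplex code for accessory subunits. NDUFV3, at the NADH-oxidising end, had levels of 9.39 and 9.46 in mock cells, 10.42 with the intact and 9.84 with the segmented duplex. Its rise of 1.00 passed (limma adjusted p = 0.0154), and its difference of 0.42 with the segmented duplex did not (limma adjusted p = 0.138). The segmented difference of NDUFV3 passed with the dimmest genes left out, with the trended and robust prior and with the pseudocount. Its other probe set, dim at a mock level of 5.21 and 5.53, read -0.29 and -0.11, and with the mean of both the difference of 0.35 missed the threshold (limma adjusted p = 0.156).

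NDUFA7 had levels of 10.00 and 9.93 in mock cells, 10.70 with the intact and 10.53 with the segmented duplex. Its rise of 0.73 passed (limma adjusted p = 0.027), and the 0.56 with the segmented duplex did not (limma adjusted p = 0.0857). The segmented difference of NDUFA7 passed in the same settings as that of NDUFV3. NDUFA8 had a level of 11.82 on both mock arrays, 12.37 after the intact and 12.09 after the segmented duplex. Its rise of 0.55 passed narrowly (limma adjusted p = 0.046), and it missed the threshold with arrays centred on their medians (0.46, limma adjusted p = 0.0671). For these 3 genes the 4 arrays had the same order: both mock arrays lowest, then the segmented, then the intact duplex. They are described here because they passed with the intact duplex, which favours this order, so it is no separate result.

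Promoter windows of 4 complex I genes that passed with the intact duplex, NDUFS3 that fell and 3 accessory genes that rose, are given here from RefSeq on GRCh38.p14, 5′ to 3′ on the gene's strand, from 250 bases before to 50 bases after the gene's start. Capitals mark matches, on either strand, to the motifs listed below.

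NDUFS3 (chr11:47578824-47579123, plus strand): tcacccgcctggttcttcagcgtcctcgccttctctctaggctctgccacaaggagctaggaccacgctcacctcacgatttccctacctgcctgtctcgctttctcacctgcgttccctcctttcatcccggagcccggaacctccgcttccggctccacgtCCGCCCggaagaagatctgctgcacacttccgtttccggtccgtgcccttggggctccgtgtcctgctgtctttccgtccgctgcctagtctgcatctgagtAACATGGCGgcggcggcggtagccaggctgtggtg
NDUFV3 (chr21:42893059-42893358, plus strand): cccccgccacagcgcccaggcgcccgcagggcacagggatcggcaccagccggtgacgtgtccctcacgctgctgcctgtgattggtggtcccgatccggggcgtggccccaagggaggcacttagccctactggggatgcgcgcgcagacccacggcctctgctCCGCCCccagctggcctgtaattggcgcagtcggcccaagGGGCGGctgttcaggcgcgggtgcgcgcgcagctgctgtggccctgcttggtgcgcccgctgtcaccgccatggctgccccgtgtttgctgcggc
NDUFA7 (chr19:8321326-8321625, minus strand): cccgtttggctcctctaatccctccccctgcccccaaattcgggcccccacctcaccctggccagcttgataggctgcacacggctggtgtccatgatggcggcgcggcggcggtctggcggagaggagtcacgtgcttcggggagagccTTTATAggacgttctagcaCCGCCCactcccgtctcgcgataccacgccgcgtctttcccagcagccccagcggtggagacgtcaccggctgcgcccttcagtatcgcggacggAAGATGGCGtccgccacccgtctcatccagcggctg
NDUFA8 (chr9:122159730-122160029, minus strand): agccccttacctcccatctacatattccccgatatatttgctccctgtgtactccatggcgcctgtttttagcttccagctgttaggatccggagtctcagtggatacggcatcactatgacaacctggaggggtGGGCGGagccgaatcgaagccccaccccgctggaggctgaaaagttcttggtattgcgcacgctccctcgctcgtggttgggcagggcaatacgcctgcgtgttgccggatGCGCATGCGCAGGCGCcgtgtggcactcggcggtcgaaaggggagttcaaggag

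The motifs searched on both strands were GCGC and TGCGC with any 1 base between for NRF1, CCGGAAGT for GABPA and AANATGGCG for YY1, which are factors known to act at nuclear genes of respiration, with GGGCGG for SP1 and TATAAA for the TATA box. Of the 73 members 60 had a window. NRF1 letters stood in 14 of the 60 (23.3%), against 8.21% of the windows of 15403 measured genes and 5.78% of all 35116 windows. YY1 letters stood in 13 (21.7%, against 4.65% and 3.19%) and GABPA letters in 7 (11.7%, against 5.89% and 4.14%). The share with SP1 letters was 61.7%, against 56.7% of measured genes, and with TATAAA 10.0%, against 9.54%. NDUFS3 and NDUFA7 each have a YY1 match that begins at base 16 and 15, counted from 1 at the gene's start. NDUFA8 has 2 overlapping NRF1 matches at its start, and NDUFV3 has 2 SP1 matches and none of the other motifs. NDUFS3, NDUFA7 and NDUFA8 have 1 SP1 match each, and NDUFA7 also has a TATA box match on the other strand. NDUFS3 fell and NDUFA7 rose with the intact duplex, and whether either YY1 match bears on this was not tested. A match is a run of letters and was not tested as a site.

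Among the complex I genes that did not pass, NDUFA2 (0.57), NDUFA3 (0.57) and NDUFA13 (0.43) had the next largest differences with the intact duplex (limma adjusted p-values of 0.0624, 0.0736 and 0.0802). They lay at 0.45, 0.39 and 0.25 with the segmented duplex. These 3 genes and NDUFA5 were named after their values were seen. NDUFA5, an accessory subunit, was near mock with the intact duplex and, after NDUFS3, the lowest complex I gene with the segmented duplex. Its levels were 10.25 and 10.49 in mock cells, 10.36 with the intact and 9.87 with the segmented duplex. The segmented array thus lay below the other 3. Its difference from mock of -0.51 did not pass (limma adjusted p = 0.151) and passed with the trended and robust prior (0.00166), without the dimmest genes (0.0217) and with the pseudocount (0.0456). Set against the intact duplex its difference of -0.50 did not pass (limma adjusted p = 0.314). Of its other 3 probe sets, 2 read -0.57 and -0.72 with the segmented duplex against -0.05 and -0.06 with the intact duplex, and the dimmest read 0.08 with the intact duplex and lay within that distance of mock with the segmented duplex.

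In complex III, UQCRB rose with the intact duplex and 0 of 7 genes passed with the segmented duplex. Of all genes 24.9% passed with the intact and 5.99% with the segmented duplex. UQCRB codes for a small subunit at the ubiquinone-binding part of the complex. It had a level of 10.77 on both mock arrays, 11.31 after the intact and 11.12 after the segmented duplex, so both duplex arrays lay above mock. The rise of 0.54 passed narrowly (limma adjusted p = 0.0468) and the 0.35 with the segmented duplex did not (limma adjusted p = 0.172). This segmented difference passed with the dimmest genes left out, with the trended and robust prior and with the pseudocount. The intact difference missed the threshold with arrays centred on their medians (0.45, limma adjusted p = 0.0689) and with the mean of the gene's 5 probe sets (0.51, limma adjusted p = 0.0584). Of the 5, 4 read from 0.46 to 0.92 with the intact duplex, and the dimmest, at 2.58 and 2.94 in mock cells, read -0.27.

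UQCRC1, a core protein of complex III, had levels of 10.64 and 10.41 in mock cells, 10.97 with the intact and 10.76 with the segmented duplex. Its differences of 0.44 and 0.24 did not pass (limma adjusted p-values of 0.121 and 0.406), and the mock arrays themselves stood 0.22 apart. The other core protein gene, UQCRC2, stood at 0.34 and 0.19. The remaining members, UQCR10, UQCR11, UQCRQ and UQCRHL, lay between -0.06 and 0.19 with the intact duplex. UQCRHL is a close copy of UQCRH, and its probe set may read both. UQCRFS1P1, a pseudogene of the iron-sulfur subunit gene, was read at 11.78 to 12.06 on the 4 arrays; a near-identical copy makes its source uncertain, and it is not counted here.

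**Figure D3:**
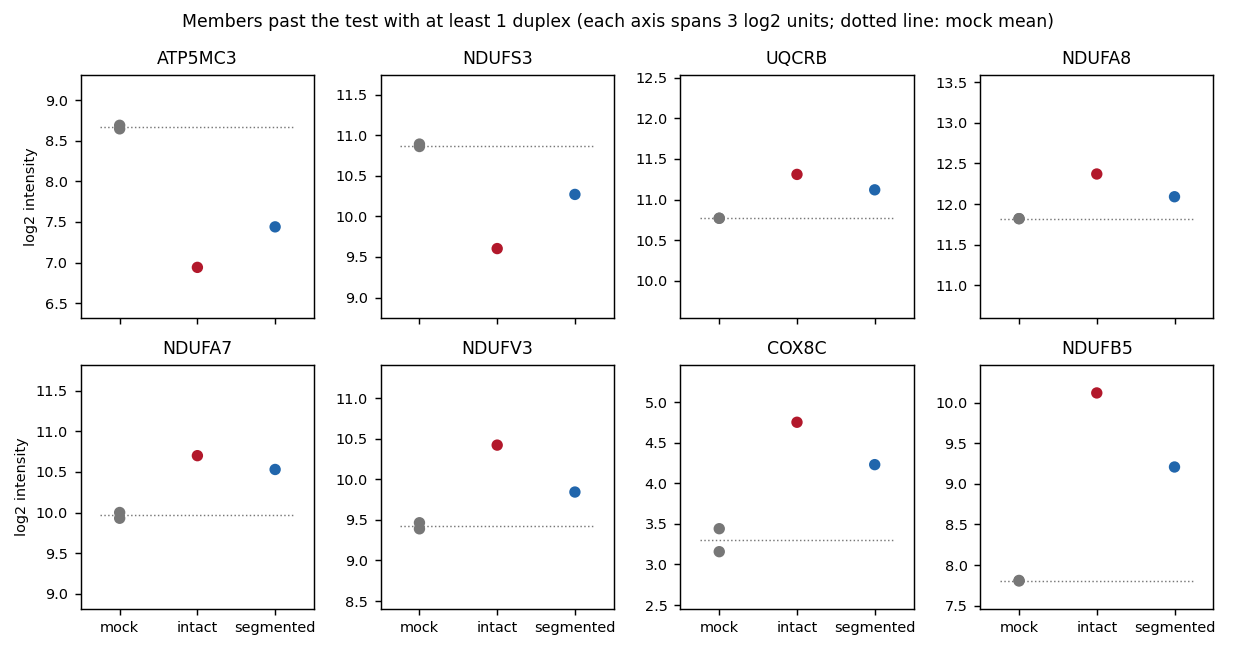
Log2 intensity on each array for the 8 genes that passed limma's test with at least 1 duplex, with the mock arrays in grey, the intact duplex in red and the segmented duplex in blue; each vertical axis spans 3 log2 units. The segmented array lies between mock and the intact array in all 8 panels, from ATP5MC3 (8.65 and 8.69, 7.44, 6.94) to NDUFB5 (7.81 and 7.80, 9.21, 10.119). All 8 passed with the intact duplex, and 2 of them also with the segmented duplex. Genes chosen by a large difference on the intact array favour this order, so it is no separate result on how the duplexes compare.

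In complex IV COX8C alone of 16 genes passed limma's test, with the intact duplex, beside 24.9% of all genes. It did so at a low level. COX8C is the testis form of subunit 8. Its levels were 3.16 and 3.44 in mock cells, 4.75 after the intact and 4.23 after the segmented duplex, so both duplex arrays were higher than both mock arrays. The rise of 1.45 with the intact duplex is 2.74-fold (limma SE 0.17, adjusted p = 0.0141), and the 0.93 with the segmented duplex did not pass (limma adjusted p = 0.0659). All 4 values lie below the median level of genes, and the files hold no detection call. With a pseudocount of 16 the differences were 0.73 and 0.43, and both passed. The segmented difference also passed with the trended and robust prior. Of 8 measured germ cell markers, 1 lay above the median level of genes, and their median level was 3.71 and 3.54 in mock cells, 3.79 with the intact and 3.65 with the segmented duplex. DDX4, PRM1, PRM2, TNP1, ODF1, LDHC and PGK2 lay between 2.79 and 4.89. The marker above the median was ODF2, at 8.40 and 8.50 in mock cells, 7.70 with the intact and 8.28 with the segmented duplex. Its fall of 0.74 with the intact duplex passed (limma adjusted p = 0.028), and 1 of its 2 probe sets went that way. The form of subunit 8 made in most tissues, COX8A, has no probe set of its own.

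Several complex IV subunits have a general form and a form restricted to certain tissues, and, apart from COX6A1, the measured general forms were bright and near mock. COX4I1 read 12.23 and 12.26 in mock cells, 12.35 with the intact and 12.28 with the segmented duplex. COX6B1 read 12.94 and 12.91, then 13.02 and 12.97. COX7A2 read 12.83 and 12.80, then 13.09 and 12.90, and COX7B read 12.65 and 12.68, then 12.74 and 12.68. COX7A2L, which helps to join complexes III and IV into larger assemblies, read 12.77 and 12.81, then 13.06 and 12.93. For these 5 genes 0 passed, with differences from 0.08 to 0.28 with the intact duplex and from 0.02 to 0.14 with the segmented duplex.

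The tissue-restricted forms lay below the median level of genes on all arrays. COX4I2, the form induced in lung and by low oxygen, read 5.08 and 5.58 in mock cells, 5.07 with the intact and 5.37 with the segmented duplex. The muscle forms COX6A2 and COX7A1 read 6.23 and 6.02, then 5.93 and 6.0, and 3.05 and 2.87, then 2.90 and 3.12. The testis forms COX6B2 and COX7B2 read 5.67 and 5.70, then 6.01 and 5.88, and 2.37 and 2.51, then 2.43 and 2.58. Of these 5 genes 0 passed, and for COX4I2, COX7A1 and COX7B2 at least 1 duplex array lay between the mock arrays.

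COX6A1, the general form of subunit 6A, was read by 1 probe set at 3.67 and 3.72 in mock cells, 3.22 with the intact and 3.73 with the segmented duplex. The gene is active in most tissues, and whether this probe set reads its RNA was not tested. The difference of -0.48 with the intact duplex did not pass (limma adjusted p = 0.0646) and passed with arrays centred on their medians. The remaining complex IV genes, COX5A, COX5B, COX6C and COX7C, lay between 11.63 and 13.12 on all arrays, with differences from -0.06 to 0.36 with the intact and from 0.01 to 0.17 with the segmented duplex.

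In the ATP synthase 1 of 17 genes passed, and it passed with both duplexes: ATP5MC3 fell. Of all genes 24.9% passed with the intact and 5.99% with the segmented duplex. The proton-driven ring of the enzyme is made of copies of subunit c. Of this subunit there are 3 genes, ATP5MC1, ATP5MC2 and ATP5MC3, whose proteins differ in the import sequence that is removed in the mitochondrion. ATP5MC3 had levels of 8.65 and 8.69 in mock cells, 6.94 after the intact and 7.44 after the segmented duplex, so both duplex arrays lay below the mock pair. The fall of 1.73 with the intact duplex is 3.31-fold (limma SE 0.12, adjusted p = 0.00856). The fall of 1.23 with the segmented duplex is 2.35-fold (limma SE 0.12, adjusted p = 0.0363). These differences lie at percentiles 1.37 and 1.07 of all genes, and the gene has 1 probe set.

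The other 2 genes of subunit c did not pass and lay above mock. ATP5MC1 read 12.07 and 12.12 in mock cells, 12.24 with the intact and 12.30 with the segmented duplex (0.14 and 0.20). ATP5MC2 read 10.65 and 10.51, then 11.03 and 10.77 (0.45 and 0.19, limma adjusted p-values of 0.0917 and 0.431). Whether ATP5MC3 differs in its change from these genes was not tested.

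The remaining 14 ATP synthase genes lay between -0.15 and 0.56 with the intact duplex. ATP5IF1, which codes for the inhibitor that stops the enzyme from running backwards, read 8.18 and 7.91 in mock cells, 8.60 with the intact and 8.21 with the segmented duplex. Its difference of 0.56 did not pass (limma adjusted p = 0.0908). ATP5MF, a small membrane subunit, read 9.94 and 10.09, then 10.48 and 10.31, with differences of 0.47 and 0.29 that did not pass (limma adjusted p-values of 0.0858 and 0.272). The catalytic head genes ATP5F1A and ATP5F1B stood at 0.08 and 0.17 with the intact duplex, and ATP5F1B at 0.08 with the segmented duplex. With the intact duplex the stalk genes ATP5F1C, ATP5F1D, ATP5PD and ATP5PO lay between -0.11 and 0.20. The membrane subunits ATP5ME, ATP5MG, ATP5MJ and ATP5MK lay between -0.10 and 0.13 with that duplex. ATP5PB, a stalk gene made in most tissues, was read by its 1 probe set at 2.71 and 3.14 on the mock arrays, and whether that probe set reads its RNA was not tested. ATP5MGL also lay low, at 5.27 and 5.49.

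Of the 73 genes 48 have 1 probe set. Of the 25 with several, all probe sets went the way of the brightest in 18 with the intact and in 17 with the segmented duplex. For NDUFA8 both probe sets were positive with both duplexes. For NDUFC1 the dimmer probe sets read 0.69 and 0.53 with the intact duplex against 0.24 for the brightest, which stands at 12.33 and 12.21 on the mock arrays. The dimmer probe set of ATP5MG, at 10.9 and 10.86 in mock cells, read 0.62 (intact) and 0.54 (segmented), against 0.13 and 0.11 for the brightest. That of NDUFA6, at 10.81 and 10.73 in mock cells, read 0.28 and 0.40, against -0.05 and -0.03. ATP5MG and NDUFA6 were named here after their values were seen.

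**Figure D4:**
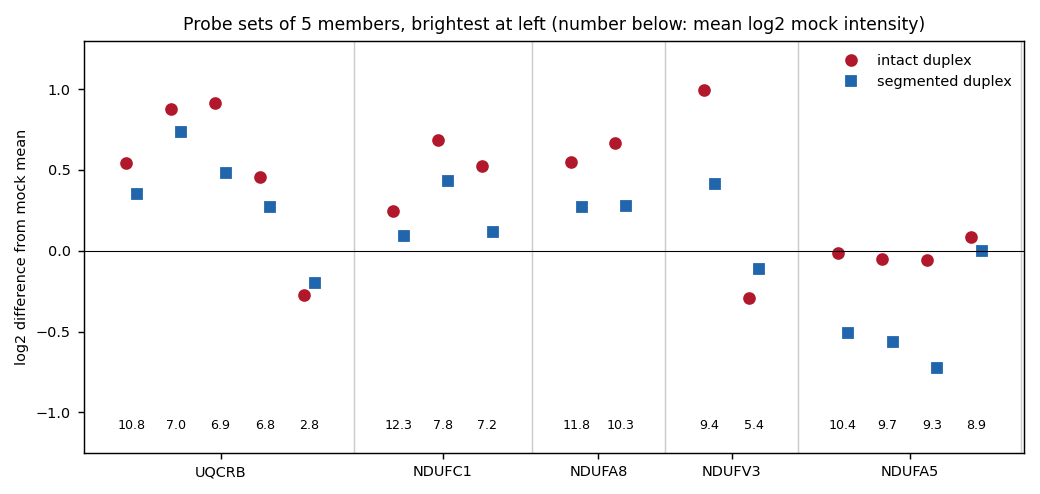
Log2 difference from the mock mean for each probe set of UQCRB, NDUFC1, NDUFA8, NDUFV3 and NDUFA5, with the intact duplex (circles) and the segmented duplex (squares), brightest probe set at the left of each gene and its mean log2 mock level written below. The dimmest probe set of UQCRB and that of NDUFV3 lie below 0 while the brightest lie above it, and 3 of 4 probe sets of NDUFA5 lie at -0.51, -0.57 and -0.72 with the segmented duplex and at -0.01, -0.05 and -0.06 with the intact duplex.

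Set directly against each other, the duplexes differed in 0 of 73 members by limma at an adjusted p of 0.05, beside 0% of all genes; the smallest adjusted p among members was 0.184. At an unadjusted p under 0.05, 5 of 73 members passed, beside 3273 of 19798 genes. With the dimmest genes left out 4 members passed, with the trended and robust prior 5 and with the pseudocount 3, beside 15.6%, 12.2% and 5.73% of all genes. The segmented array was below the intact array for 52 members and above it for 21, with a median of -0.07 beside -0.02 over all genes. The widest differences were those of NDUFB5 (-0.91), NDUFS3 (0.67) and NDUFV3 (-0.58), with limma adjusted p-values of 0.184, 0.202 and 0.228. In each of the 3 the segmented array lay on the side of mock. These 3 genes had also passed with the intact duplex against mock, and such a choice favours this order. A difference that misses the threshold does not show that the duplexes act alike.

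Related genes were looked at in 10 lists. The list of subunits coded by mitochondrial DNA held 0 measured genes, and in several of the others falls outnumbered rises with the intact duplex. Of 14 measured genes of complex II and electron carriers 4 fell and 2 rose with the intact duplex, with a median of -0.02, beside 10.4% lower, 14.5% higher and a median of 0.02 over all genes. SDHD, the membrane anchor of complex II, read 10.81 and 11.07 in mock cells, 9.26 with the intact and 10.25 with the segmented duplex, a fall of 1.68 with the intact duplex (limma adjusted p = 0.0108) and a difference of -0.69 that did not pass. GPD2, which feeds electrons from glycerol phosphate to ubiquinone, fell by 1.64 and 0.93 (limma adjusted p-values of 0.00904 and 0.0453). CYCS, the cytochrome c gene, fell by 1.21 with the intact duplex (limma adjusted p = 0.0184) and stood at -0.47 with the segmented duplex. The 2 that rose with the intact duplex were SDHA, the flavoprotein subunit of complex II, by 0.62 and COXFA4L3 by 0.93 (limma adjusted p-values of 0.045 and 0.0178); both were named after their values were seen.

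Among the assembly factors some rose and some fell with the intact duplex. The shares of all genes were 14.5% higher and 10.4% lower with the intact duplex, and 3.31% and 2.68% with the segmented duplex. Of 16 complex I assembly genes 2 rose and 0 fell with the intact duplex, NDUFAF3 by 0.75 and COA1 by 0.71 (limma adjusted p-values of 0.0285 and 0.0409); with the mean of its probe sets COA1 missed the threshold. Of 10 complex II and III assembly genes 1 rose, SDHAF4, by 1.18 with the intact and 1.00 with the segmented duplex (limma adjusted p-values of 0.0131 and 0.0433). Of 25 complex IV assembly genes 2 fell and 2 rose with the intact duplex: COA7 fell by 0.84 and COA4 by 0.66, and COA3 rose by 0.56, narrowly (limma adjusted p = 0.0482, and 0.0625 with arrays centred on their medians). Of 5 ATP synthase assembly genes 1 fell, TMEM70, by 0.89, and 4 did not pass. Those 4, ATPAF1, ATPAF2, TMEM242 and FMC1, lay at 0.43, 0.44, 0.43 and 0.51, so that the list's median was 0.43. FMC1 was dim, at 4.13 and 4.67 on the mock arrays, which thus stood 0.535 apart. TMEM242 read 6.49 and 6.24 there. For ATPAF1 and for FMC1, 1 of 2 probe sets went that way, and for ATPAF2 all 3 did. With the segmented duplex 0 of these assembly genes passed except SDHAF4.

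Of 18 regulators of mitochondrial transcription and biogenesis 5 fell and 0 rose with the intact duplex, with a median of -0.17. With the segmented duplex 2 fell and 0 rose, with a median of -0.14. Over all genes 10.4% fell and 14.5% rose with the intact duplex, with a median of 0.02. With the segmented duplex 2.68% of all genes fell and 3.31% rose, with a median of 0.01. PPARGC1B, a coactivator of genes of respiration, read 8.44 and 8.62 in mock cells, 7.06 with the intact and 7.51 with the segmented duplex. It fell by 1.47 and 1.01 (limma adjusted p-values of 0.0108 and 0.0468). MYC fell by 1.35 and 1.08, and TWNK, the mitochondrial DNA helicase gene, by 1.20 with the intact duplex. NRF1 (-0.25), GABPA (0.02), YY1 (-0.29) and TFAM (0.21), named after their values were seen, did not pass with the intact duplex; TFAM packages mitochondrial DNA.

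Of 18 genes of inner membrane import and proteases 6 fell and 0 rose with the intact duplex, with a median of -0.45. With the segmented duplex 0 passed and the median was -0.17. The shares of all genes, beside this and the next 2 lists, were 10.4% lower and 14.5% higher with the intact duplex. They were 2.68% and 3.31% with the segmented duplex, and the medians of all genes were 0.02 and 0.01. CHCHD4, which folds imported proteins, fell by 0.90, the translocase gene TIMM17A by 0.79 and the prohibitin gene PHB1 by 0.74 (limma adjusted p-values of 0.0173, 0.0226 and 0.0324). Of 7 carriers and channels, UCP2 rose by 1.55 with the intact duplex and VDAC2, an outer membrane channel, fell by 0.92 and 0.91 (limma adjusted p-values of 0.0167 and 0.0432). Of 20 genes of glycolysis and lactate 3 rose and 1 fell with the intact duplex and 0 passed with the segmented duplex; the enolase gene ENO2 rose by 1.25 and the pyruvate dehydrogenase kinase genes PDK1 and PDK3 stood at 0.75 and -0.97. For PDK3, 2 of 5 probe sets went that way, and the mean of all 5 stood at -0.04.

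**Figure D5:**
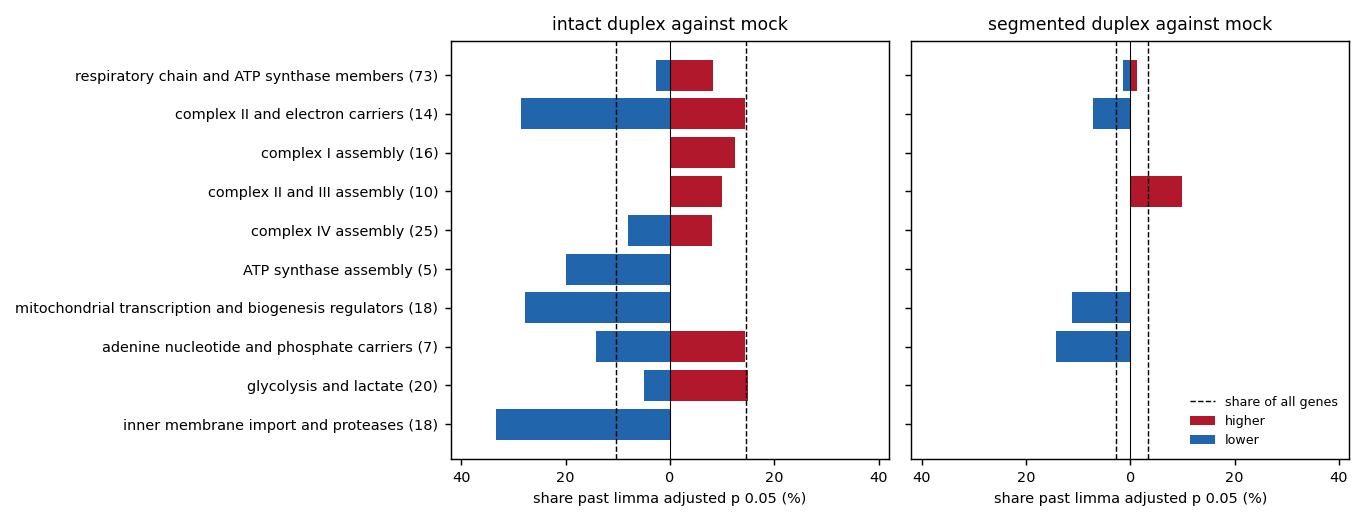
Share of genes past limma's adjusted p of 0.05 (%), lower to the left and higher to the right of 0, for the 73 members and for 9 lists of related genes, with the intact duplex (left panel) and the segmented duplex (right panel); dashed lines mark the share of all genes each way (10.4% lower and 14.5% higher, and 2.68% and 3.31%). The members' bars are inside the dashed lines in both panels.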

How the data were processed

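The deposited table holds a linear intensity (2.51 to 22268) for each probe set on each array, made by the authors with RMA per the submitters' processing notes; RMA as usually run includes quantile normalization, which removes a shift that most genes share. Median intensities of the arrays were 42.6 to 46.3, and for arrays their number limits the precision.

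Log2 intensities without a pseudocount were used. Probe sets were named through the platform annotation and updated by Entrez identifier to RefSeq of GRCh38.p14 (35134 of 35184 with 1 gene matched; 374 with several and 16819 unlisted were left out). The probe set with the highest mean stood for a gene. limma 3.58.1 in R 4.3.3 fitted 3 group means over 4 arrays (1 residual and 2.89 prior degrees of freedom), with Benjamini-Hochberg adjustment over 19798 genes, and was tested on simulated data. Named with values are members past the threshold, the 2 largest per complex and duplex, isoform pairs, the 3 widest differences between duplexes and up to 3 genes past the threshold per list; others named after their values were seen are said to be so or given in ranges. The members and lists were chosen with earlier results of these data known. Alternatives were scaling, a filter on dim genes, the prior, the probe set rule, a pseudocount, a wider name rule and leaving out each mock array.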

Additional observations from a re-analysis of the deposited data

How the results depend on the processing

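Counts of members past limma's threshold kept within 1.5 times of 8 (intact), 2 (segmented) and 0 (between duplexes) under a further quantile normalization, centring on array medians, the mean of all probe sets, leaving out probe sets whose names end in _x_at or _s_at and the wider name rule, which added 0 genes. They were 19, 8 and 4 without the dimmest 40% of genes, where 67 members were left to test. With the trended and robust prior they were 31, 17 and 5, and with the pseudocount of 16 they were 18, 9 and 3. Why these counts were higher was not tested. The member medians, 0.13, 0.09 and -0.07, were 0.0435, 0.0271 and -0.0450 with centring, 0.14, 0.09 and -0.0884 without the dimmest genes, 0.14, 0.0970 and -0.0861 with the mean of probe sets, and 0.0806 (segmented) with the pseudocount. Without mock replicate 1 or 2 they ran from 0.133 to 0.139 (intact) and from 0.0715 to 0.1000 (segmented), as values with no test since no residual degree of freedom remains, and members at least 1.5-fold from mock numbered 6 to 9 (intact) and 4 to 6 (segmented).

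Some differences of named genes that did not pass changed sign. With centring the segmented differences of COX6A1, COX4I1, COX4I2, COX6B1, COX7B and PDK3 were -0.0209, -0.0296, -0.0273, -0.0221, -0.0424 and -0.0431, and the intact difference of COX7B was -0.0157. With the further quantile normalization the segmented difference of COX4I2 was -0.0188 and the intact difference of COX7B2 0.0391. With the mean of probe sets the segmented difference of COX4I1 was -0.0210. Without mock replicate 1 the segmented difference of COX4I2 was -0.213, against 0.282 without mock replicate 2, and the intact difference of COX7A1 was 0.0285. Without mock replicate 2 the intact difference of COX7B2 was 0.0569 and the segmented difference of PDK3 -0.0807. The intact difference of NDUFA5 was 0.0233 with the further quantile normalization. No paired analysis was possible because only the mock group has 2 arrays. With 1 array per duplex and no detection call, small changes and dim genes are the least certain.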
